A study of Homo sapiens with 27 samples.

Results

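The comparison is of OCI-LY1 cells expressing the first SIRT3 hairpin, shSIRT3-1, with OCI-LY1 cells expressing the control hairpin, shCtr. Its members are the genes with a value of at least 1 CPM (reads of a gene, scaled to the total of the library) in at least 3 of the 6 libraries, which were 11095 of the 27115 genes in the files. OCI-LY1 is an established human diffuse large B-cell lymphoma (DLBCL) line, spelled OCI-Ly1 in the labels, of the germinal center B-cell-like (GCB) subtype. RNA was measured in 27 libraries from 3 DLBCL lines, Karpas422, OCI-LY1 and HBL1, each with shCtr, shSIRT3-1 or a second hairpin, shSIRT3-2, in 3 replicates. Hairpins were delivered by a lentiviral pLKO.1 vector that carries puromycin resistance and yellow fluorescent protein, and RNA was taken after 8 days. The question was which transcripts change when SIRT3 is depleted in DLBCL cells. The knockdown was repeated within each line, but whether each replicate was a separate transduction or culture is not given in the sources used here, so the p-values measure the spread between these libraries, which may be technical.

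SIRT3 is a mitochondrial deacetylase that acts on metabolic enzymes, among them those that bring glutamine into the tricarboxylic acid (TCA) cycle. ATF4 is the transcription factor of the integrated stress response, made when amino acids run short, and its targets import and synthesize amino acids and charge tRNAs. Interferon-stimulated genes are a separate program, driven by interferon signaling, whose products limit viral replication.

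The 6 libraries held between 40674045 and 50147928 reads on genes. The control libraries differed among themselves, with 328 to 445 genes over 2-fold apart between any pair of them. shCtr replicate 1 lay closer to shSIRT3-1 replicate 1 (150 genes over 2-fold apart) than to either of the other control libraries. shSIRT3-1 replicates 1 and 3 had 13 genes over 2-fold apart, whereas shSIRT3-1 replicate 2 stood apart, with 252 and 266 genes over 2-fold from the others. Of 13 GCB-like markers, 11 were at 1 CPM or more in all 6 libraries, and BCL6 was the highest by CPM. LMO2 and SERPINA9 were below 1 CPM throughout. Of 13 activated B-cell-like markers 8 were at 1 CPM or more in all 6 libraries. The list summed to 183 to 258 CPM with shCtr and to 176 to 187 CPM with shSIRT3-1. CCND2 was at 0.01, 1.35 and 0.468 CPM with shCtr and at 4.09, 0.0206 and 0 CPM with shSIRT3-1. IRF4 was at 0.331, 1.36 and 0.916 CPM with shCtr and at 2.36, 5.61 and 0.429 CPM with shSIRT3-1. TNFRSF13B reached 1 CPM only in shSIRT3-1 replicate 1 (1.39 CPM). The summed T and NK cell markers reached at most 0.727 CPM, the monocyte and macrophage markers 1.39 CPM, the epithelial markers 2.48 CPM and the erythroid markers 0.189 CPM in any of these libraries, and CD2, CD8B, TRAT1, GZMA, GZMK, AHSP and the hemoglobin genes of these lists were at 0 throughout. Of the epithelial markers, ESRP1 was at 1.74 CPM in shCtr replicate 2 and at most 0.0477 CPM elsewhere.

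SIRT3, the targeted gene (hg19 chr11:215030-236931, minus strand), was lower in each shSIRT3-1 library than in any control. SIRT3 was at 10.7, 13.8 and 9.98 CPM with shCtr and at 2.23, 1.06 and 1.62 CPM with shSIRT3-1. The groups did not overlap, and the fitted level was 14.5% of the control (limma, log2 fold change -2.78 ± 0.26 SE, adjusted p = 0.00228). In bulk libraries such as these, fewer cells of a kind and less RNA per cell cannot be told apart. Without each library in turn SIRT3 stayed called. With shSIRT3-2, read against these same controls, SIRT3 was at 6.17, 4.06 and 6.03 CPM, a log2 fold change of -1.08 ± 0.26 SE, so the remaining level was higher than with shSIRT3-1 in every replicate. No other tested sirtuin was called among SIRT1, SIRT2, SIRT5, SIRT6 and SIRT7, whose log2 fold changes lay between -0.30 (SIRT5) and 0.41 (SIRT7, adjusted p = 0.0535). edgeR also called SIRT3 alone of the list.

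Calls required a change of more than 1.5-fold together with an adjusted p (Benjamini-Hochberg over all 11095 genes) below 0.05. Of these, 273 were lower with shSIRT3-1 (2.46%) and 222 were higher (2.0%). The falls had a median log2 fold change of -0.82 and the rises of 0.88, and 75 falls and 92 rises exceeded 2-fold. In every called gene the 3 shSIRT3-1 libraries lay beyond all 3 controls. Over all genes, 1679 had all shSIRT3-1 libraries below all controls (15.1%) and 1744 had them above (15.7%), whether or not they passed the test. Lower genes had a median mean level of 16.6 CPM and higher genes of 6.31 CPM. Of the 222 higher genes, 39 passed the filter on low values through the shSIRT3-1 libraries alone, and 4 of the 273 lower genes through the controls alone. With the replicate number as a block, 386 genes were lower (3.48%) and 330 higher (2.97%). Of the same 11095 genes, edgeR called 335 lower and 199 higher. These totals are the background for the counts in each list below.

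**Figure D1:**
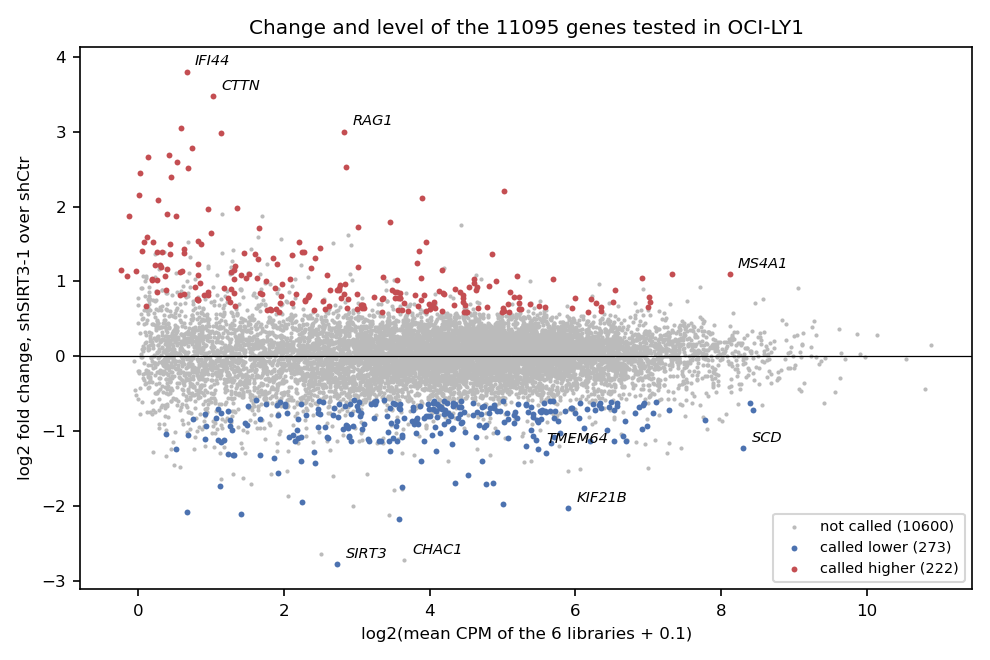
Log2 fold change of shSIRT3-1 over shCtr (vertical axis) against log2 of the mean CPM of the 6 libraries plus 0.1 (horizontal axis), with 1 point per gene; blue points are the 273 genes called lower and red points the 222 called higher. SIRT3 is the lowest called point, IFI44 the highest, and CHAC1 lies as low as SIRT3 without being called.

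The falls with the smallest p-values were modest in size, and their small spread between replicates follows in part from that choice. Next to SIRT3 they were TMEM64, MAP2K4, G3BP2, CADM1, FBXO7, UBQLN2, CDKN2D and ZCCHC3, which were chosen for description after their values were seen. TMEM64 was at 61.9, 56.96 and 69.9 CPM with shCtr and at 27.4, 24.7 and 27.6 CPM with shSIRT3-1 (limma, log2 fold change -1.24 ± 0.10 SE, adjusted p = 0.00153). MAP2K4, a kinase upstream of JNK, was at 15.2, 15.2 and 14.2 CPM with shCtr and at 7.22, 5.91 and 7.05 CPM with shSIRT3-1 (log2 fold change -1.14 ± 0.11 SE, adjusted p = 0.00228). G3BP2, a protein of stress granules, was at 158, 129.8 and 139 CPM with shCtr and at 70.1, 56.3 and 67.8 CPM with shSIRT3-1 (log2 fold change -1.14 ± 0.11 SE, adjusted p = 0.00266). In all 3 genes the knockdown libraries clustered well under the lowest control. CADM1, an adhesion molecule, was at 32.7, 38.7 and 32.1 CPM with shCtr and at 13.6, 9.41 and 11.5 CPM with shSIRT3-1 (log2 fold change -1.59 ± 0.16 SE, adjusted p = 0.00333). FBXO7, an F-box protein of ubiquitin ligases, was at 57.3, 57.0 and 51.8 CPM with shCtr and at 27.6, 19.6 and 26.1 CPM with shSIRT3-1 (log2 fold change -1.19 ± 0.12 SE, adjusted p = 0.00333). UBQLN2, a ubiquilin that carries proteins to the proteasome, was at 23.98, 25.01 and 22.2 CPM with shCtr and at 13.2, 11.6 and 12.98 CPM with shSIRT3-1 (log2 fold change -0.91 ± 0.10 SE, adjusted p = 0.00333). CDKN2D, an inhibitor of CDK4 and CDK6, was at 6.56, 6.79 and 6.79 CPM with shCtr and at 2.67, 2.02 and 2.83 CPM with shSIRT3-1 (log2 fold change -1.40 ± 0.15 SE, adjusted p = 0.00342). Each of the 8 stayed called without any single library, which also follows in part from their choice by p-value.

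Set side by side, these falls differed in where else they were seen. With shSIRT3-2, measured against the same OCI-LY1 controls, the log2 fold change was 0.039 for TMEM64, 0.21 for MAP2K4, 0.13 for G3BP2, -0.18 for CADM1, 0.057 for FBXO7, -0.044 for UBQLN2, -0.38 for CDKN2D and 0.24 for ZCCHC3. In Karpas422 with shSIRT3-1, which has its own controls, TMEM64 fell by 2.38 on the log2 scale, MAP2K4 by 1.22, CDKN2D by 1.34, ZCCHC3 by 0.79 and G3BP2 by 0.69, all called there, while UBQLN2 at -0.49 and FBXO7 at -0.58 passed the adjusted p (0.0124 and 0.00483) below the fold required. In HBL1 with shSIRT3-1, TMEM64 fell by 2.56, MAP2K4 by 1.51, FBXO7 by 1.29, G3BP2 by 1.03, UBQLN2 by 0.88, CDKN2D by 1.70 and ZCCHC3 by 0.97, also called. CADM1 was at most 0.0318 CPM in every Karpas422 library and 0.0315 CPM in every HBL1 library used, so a fall could not be measured there. TMEM64 fell less in OCI-LY1 than in HBL1 (adjusted p of the difference 0.00871). Of the 273 lower genes, 97 had a log2 fold change with shSIRT3-2 within 0.25 of 0, and the median over the 273 was -0.43. Of the 222 higher genes, 50 lay within 0.25 of 0 with shSIRT3-2, and the median over the 222 was 0.50. All these genes were called against the same controls, so these medians are not an independent measure of shSIRT3-2.

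**Figure D2:**
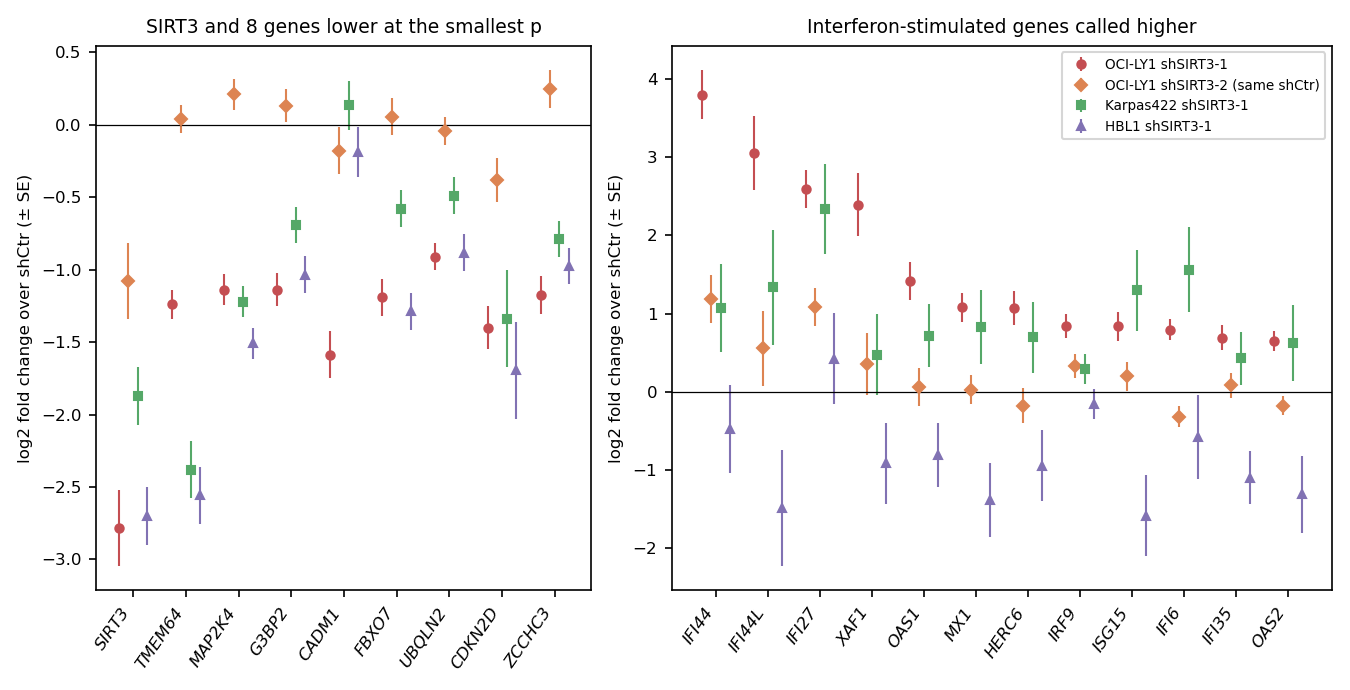
Log2 fold change over shCtr with its SE (vertical axis, n = 3 libraries a group) for SIRT3 and the 8 genes lower at the smallest p (left) and for the 12 interferon-stimulated genes called higher (right); circles are OCI-LY1 shSIRT3-1, diamonds OCI-LY1 shSIRT3-2 against the same controls, squares Karpas422 shSIRT3-1 and triangles HBL1 shSIRT3-1. On the left, the circles, squares and triangles lie below 0 for each gene but CADM1, which is at or near 0 CPM in both other lines, and the interferon-stimulated genes lie above 0 in OCI-LY1 and, but for IFI27, below 0 in HBL1.

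Among called genes averaging at least 2 CPM in the higher group, the largest falls after SIRT3 were in IL2RA, RAB37, MASP2, KIF21B, FAM46C, RAB39B and BCAS1. IL2RA was at 14.7, 24.1 and 18.9 CPM with shCtr and at 6.003, 2.15 and 5.296 CPM with shSIRT3-1 (limma, log2 fold change -2.17 ± 0.53 SE, adjusted p = 0.0403), and encodes the alpha chain of the interleukin-2 receptor. MASP2, a protease of the lectin pathway of complement, was at 1.46, 3.02 and 3.03 CPM with shCtr and at 0.544, 0.555 and 0.382 CPM with shSIRT3-1 (log2 fold change -2.08 ± 0.29 SE, adjusted p = 0.00911), and it passed the filter through the controls alone. FAM46C, a non-canonical poly(A) polymerase, was at 41.9, 45.5 and 64.7 CPM with shCtr and at 14.8, 8.41 and 16.2 CPM with shSIRT3-1 (log2 fold change -1.97 ± 0.38 SE, adjusted p = 0.0209). In IL2RA, FAM46C and BCAS1 the lowest library was shSIRT3-1 replicate 2, at 2.702 CPM in BCAS1 against 7.43 and 7.54 CPM in the other knockdown libraries. KIF21B, a kinesin motor, was at 40.05, 198 and 60.8 CPM with shCtr and at 22.8, 13.2 and 23.3 CPM with shSIRT3-1 (log2 fold change -2.03 ± 0.48 SE, adjusted p = 0.0361). shCtr replicate 2 was far above the rest, and without it the log2 fold change was -1.36. RAB37, a Rab GTPase of secretory vesicles, was at 2.25, 4.74 and 5.77 CPM with shCtr and at 0.662, 0.688 and 1.298 CPM with shSIRT3-1 (log2 fold change -2.10 ± 0.42 SE, adjusted p = 0.0226), and 4.698, 13.2 and 4.88 CPM with shCtr and 1.94, 1.28 and 1.89 CPM with shSIRT3-1 was measured for RAB39B, another Rab GTPase (log2 fold change -1.94 ± 0.35 SE, adjusted p = 0.0171). BCAS1 had 15.3, 17.4 and 22.7 CPM with shCtr and 7.43, 2.702 and 7.54 CPM with shSIRT3-1 (log2 fold change -1.75 ± 0.39 SE, adjusted p = 0.03002). Of these 8 falls, SIRT3 alone stayed called whichever library was left out. Without shCtr replicate 2, 4 were no longer called, without shCtr replicate 3, 5, and without shSIRT3-1 replicate 1, 2 or 3, 3, 6 and 7, with adjusted p between 0.0508 and 0.13.

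**Figure D3:**
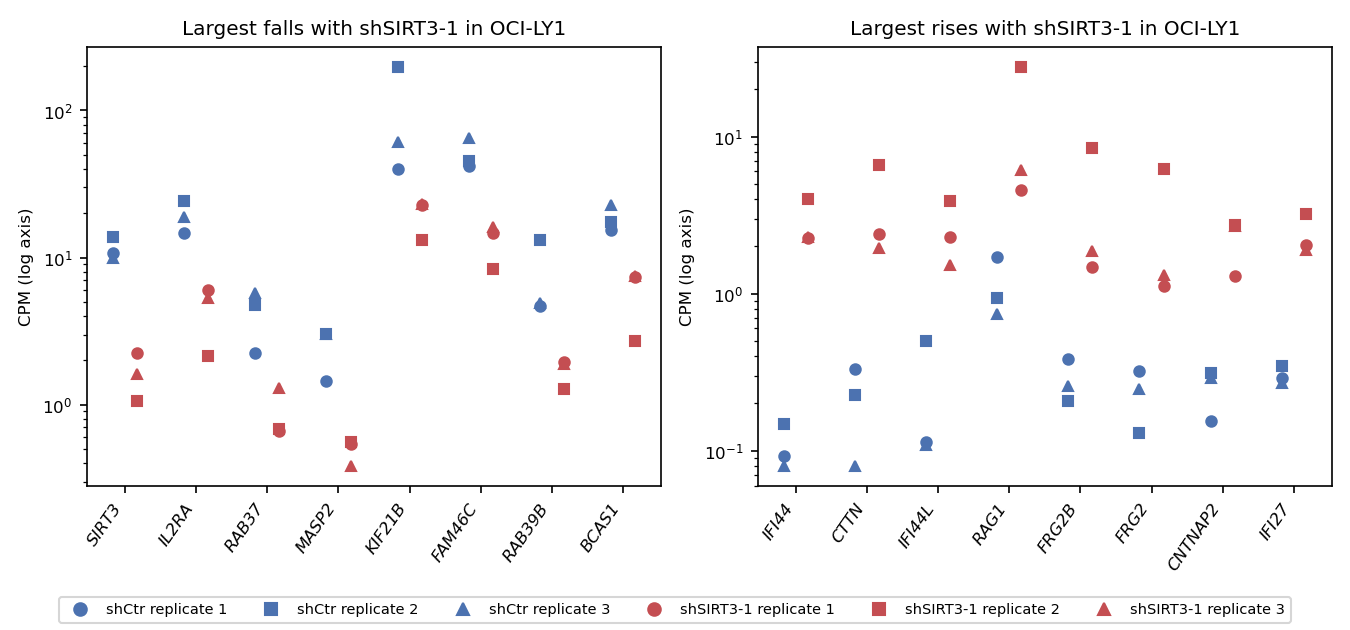
CPM on a log axis (vertical) in each of the 6 libraries for the 8 largest falls (left) and the 8 largest rises (right); blue is shCtr, red shSIRT3-1, and the marker shape gives the replicate. No red point overlaps a blue one within a gene, and shSIRT3-1 replicate 2 (red squares) is the highest library for each of the 8 rises.

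By the same rule the largest rises were in IFI44, CTTN, IFI44L, RAG1, FRG2B, FRG2, CNTNAP2 and IFI27. All but RAG1 were below 1 CPM in every control and passed the filter through the shSIRT3-1 libraries alone. CTTN, cortactin of the actin cytoskeleton, was at 0.331, 0.225 and 0.0796 CPM with shCtr and at 2.38, 6.64 and 1.96 CPM with shSIRT3-1 (limma, log2 fold change 3.47 ± 0.61 SE, adjusted p = 0.01701). CTTN rested on 32, 26 and 8 reads in the controls and on 263, 646 and 205 reads with shSIRT3-1. CNTNAP2, a neurexin family adhesion protein, was at 0.155, 0.312 and 0.289 CPM with shCtr and at 1.297, 2.74 and 2.68 CPM with shSIRT3-1 (log2 fold change 2.69 ± 0.32 SE, adjusted p = 0.00524). RAG1, the catalytic subunit of the V(D)J recombinase, was at 1.72, 0.944 and 0.737 CPM with shCtr and at 4.597, 27.8 and 6.15 CPM with shSIRT3-1 (log2 fold change 3.003 ± 0.62 SE, adjusted p = 0.0243). shSIRT3-1 replicate 2 held the most RAG1 by far, and without that library the log2 fold change was 2.21 (adjusted p = 0.0553). FRG2B was at 0.383, 0.208 and 0.259 CPM with shCtr and at 1.49, 8.44 and 1.86 CPM with shSIRT3-1 (log2 fold change 2.99 ± 0.56 SE, adjusted p = 0.0193), and FRG2 ran from 1.12 to 6.25 CPM with shSIRT3-1 and was at most 0.321 CPM in the controls (log2 fold change 2.78 ± 0.57 SE, adjusted p = 0.0245). FRG2 and FRG2B are near-identical copies on different chromosomes, so the reads of either cannot be assigned with certainty. IFI44, CNTNAP2 and IFI27 stayed called whichever library was left out, but all 3 passed the filter only through the group where they were high, so these calls lend no support. Without shCtr replicate 2, 3 of the 8 rises were no longer called, and without shCtr replicate 3, shSIRT3-1 replicate 2 or shSIRT3-1 replicate 3, 4, with adjusted p between 0.0516 and 0.0801.

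Across all 18 alternatives, 30 lower and 11 higher genes stayed called. Of the 11, IFI44, CNTNAP2, VSIR and IFI27 passed the filter through the shSIRT3-1 libraries alone, and the other 7 did not. Beside those named, TARDBP, the RNA-binding protein TDP-43, was at 148, 106 and 126 CPM with shCtr and 63.6, 49.8 and 59.8 CPM with shSIRT3-1 (limma, log2 fold change -1.12 ± 0.15 SE, adjusted p = 0.00664), and SMAD5, a mediator of BMP signaling, at 57.6, 61.7 and 61.4 CPM with shCtr and 31.6, 21.9 and 30.4 CPM with shSIRT3-1 (log2 fold change -1.12 ± 0.13 SE, adjusted p = 0.00524). Among the rises, PLXNB1, a semaphorin receptor, was at 2.71, 2.87 and 3.13 CPM with shCtr and at 6.63, 9.49 and 8.35 CPM with shSIRT3-1 (log2 fold change 1.45 ± 0.16 SE, adjusted p = 0.00398). VSIR, the immune checkpoint VISTA, was at 0.455, 0.3203 and 0.309 CPM with shCtr and at 1.74, 1.78 and 2.04 CPM with shSIRT3-1 (log2 fold change 2.09 ± 0.27 SE, adjusted p = 0.00664), below 1 CPM in every control. PLD2, a phospholipase D, was at 5.01, 4.34 and 4.26 CPM with shCtr and at 8.07, 8.82 and 8.49 CPM with shSIRT3-1 (log2 fold change 0.89 ± 0.11 SE, adjusted p = 0.00664). These 5 genes were chosen after their values were seen.

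Some of the interferon-stimulated genes rose. Of the 29 genes of the list, 22 were tested, 12 were called higher (2.0% of all genes were) and none lower by limma, and edgeR also called 12 higher and 0 lower. In 16 of the 22 all shSIRT3-1 libraries were above the controls (15.7% of all genes) and in 1 below (15.1%). The median log2 fold change of the 22 was 0.74, beside 0.021 for all genes tested. Of the 12, 5 passed the filter through the shSIRT3-1 libraries alone (IFI27, IFI44, IFI44L, HERC6 and XAF1). For these 5 the filter itself set the knockdown libraries above the controls. The counts of 12 and 16 and the median of 0.74 include them, and to that extent lend no support. Of the 17 genes at 1 CPM or more in at least 1 control, 7 were called higher. IFI44 was at 0.0931, 0.147 and 0.0796 CPM with shCtr and at 2.28, 4.03 and 2.28 CPM with shSIRT3-1 (log2 fold change 3.80 ± 0.31 SE, adjusted p = 0.00153), on 9, 17 and 8 reads in the controls and 251, 392 and 239 reads with shSIRT3-1. IFI44L, its neighbor on chromosome 1, was at 0.114, 0.502 and 0.1095 CPM with shCtr and at 2.29, 3.904 and 1.52 CPM with shSIRT3-1 (log2 fold change 3.06 ± 0.48 SE, adjusted p = 0.0148). IFI27 was at 0.2897, 0.346 and 0.269 CPM with shCtr and at 2.03, 3.22 and 1.89 CPM with shSIRT3-1 (log2 fold change 2.59 ± 0.24 SE, adjusted p = 0.00228). In these 3 genes no control was above 0.502 CPM and no knockdown library below 1.52 CPM. XAF1 was at 0.197, 0.485 and 0.319 CPM with shCtr and at 1.77, 3.25 and 1.58 CPM with shSIRT3-1 (log2 fold change 2.39 ± 0.40 SE, adjusted p = 0.0156).

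The members at higher CPM had log2 fold changes of at most 1.41. MX1, a dynamin-like GTPase that blocks virus replication, was at 27.9, 25.2 and 17.9 CPM with shCtr and at 51.1, 50.6 and 46.1 CPM with shSIRT3-1 (log2 fold change 1.08 ± 0.18 SE, adjusted p = 0.0161). OAS1, which makes the oligoadenylate signal for RNase L, was at 10.9, 6.23 and 6.48 CPM with shCtr and at 18.5, 26.9 and 17.1 CPM with shSIRT3-1 (log2 fold change 1.41 ± 0.24 SE, adjusted p = 0.0161). ISG15, a ubiquitin-like modifier, was at 17.4, 10.2 and 12.4 CPM with shCtr and at 26.1, 21.3 and 22.6 CPM with shSIRT3-1 (log2 fold change 0.84 ± 0.19 SE, adjusted p = 0.0314). In OAS1 and ISG15 the highest control was shCtr replicate 1. IRF9, a DNA-binding factor of the interferon response, was at 7.66, 10.2 and 7.81 CPM with shCtr and at 13.9, 18.2 and 14.2 CPM with shSIRT3-1 (log2 fold change 0.84 ± 0.15 SE, adjusted p = 0.0177). IFI6, IFI35, OAS2 and HERC6 were also higher, by 0.79, 0.69, 0.65 and 1.07 on the log2 scale (limma, adjusted p = 0.0154, 0.0325, 0.0213 and 0.0245). OAS3 was at 19.2, 7.38 and 8.79 CPM with shCtr and 25.3, 24.9 and 23.5 CPM with shSIRT3-1 and was called with the replicate block (adjusted p = 0.0193) but not without it (adjusted p = 0.0509). ISG20 had the lowest log2 fold change of the list, -0.69 (adjusted p = 0.0878). The 7 members below the filter were IFIT1, IFIT2, IFIT3, OASL, RSAD2, USP18 and HERC5. In all but HERC5 each shSIRT3-1 library was above each control, with 39, 75 and 42 reads of RSAD2 against 4, 2 and 1. OASL had 22, 21 and 15 reads against 1, 6 and 4. The share of all genes below the filter that separate in this way was not computed, so this count lends no support. None of the 7 called members at 1 CPM or more in a control stayed called whichever library was left out. IFI27 and IFI44 did, both of which passed the filter through the shSIRT3-1 libraries alone. The number still called was 12 without shCtr replicate 1, 10 without shCtr replicate 2, 5 without shCtr replicate 3, 8 without shSIRT3-1 replicate 1 and 3 without shSIRT3-1 replicate 2 or 3, where the lost genes had adjusted p between 0.052 and 0.1.

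Elsewhere the list had other medians. With shSIRT3-2 and the same controls its median log2 fold change was 0.032, with MX1 at 0.024, OAS1 at 0.064, IFI44 at 1.19 and IFI27 at 1.09. With shSIRT3-1 in Karpas422 the median was 0.67, and 2 members were called higher and 1 lower, where 3.64% of all genes were higher and 9.15% lower. The Karpas422 controls spread widely, with IFI44 at 109.9, 41.5 and 10.8 CPM and IFI44L at 59.8, 22.8 and 3.73 CPM. The Karpas422 shSIRT3-1 libraries lay within that range, at 74.8, 70.0 and 88.7 CPM of IFI44 and 41.5, 38.8 and 52.0 CPM of IFI44L. With shSIRT3-1 in HBL1 the median was -0.87, and 8 members were called lower and none higher (limma), where 17.5% of all genes were lower and 9.36% higher. The response of 9 of the 22 genes differed between OCI-LY1 and HBL1 by the interaction test (11.7% of all genes did). Among them was MX1 (limma, difference 2.47, adjusted p = 0.0275). IFI44 (difference 4.28), IFI44L and XAF1 were too, but passed the filter in OCI-LY1 through the shSIRT3-1 libraries alone, so they lend no support.

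The sequence upstream of the interferon-stimulated genes was searched for the interferon-stimulated response element, taken as a pair of GAAA repeats with any 2 bases between them, on both strands, within the 250 bases before each RefSeq start site (build GRCh38.p14). Of the 22 tested members, 18 matched a promoter and 10 of these held the motif (55.6%), against 209 of 9024 tested genes with a promoter (2.32%) and 839 of 27305 promoters in all (3.07%). Of the 12 called higher, 11 matched and 5 held it, namely IFI6, IFI27, IFI44, IFI44L and ISG15. The motif was also upstream of 5 of the 7 members not called that matched a promoter, OAS3, ISG20, IFIT5, IFIH1 and BST2. That is 71.4%, against 45.5% of the called members, so the motif was not more frequent among the called. The windows of 4 of the called genes are shown from large and small rises alike, with the motif in capitals on the strand of the gene.
IFI44: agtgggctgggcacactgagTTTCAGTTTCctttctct
IFI44L: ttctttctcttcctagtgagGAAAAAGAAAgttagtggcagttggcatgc
IFI27: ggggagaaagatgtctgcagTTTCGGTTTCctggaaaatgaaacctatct
ISG15: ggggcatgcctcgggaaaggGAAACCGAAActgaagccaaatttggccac
The IFI44 window is at chr1:78649751-78649788, plus strand, that of IFI44L at chr1:78620355-78620404, plus strand, that of IFI27 at chr14:94110608-94110657, plus strand and that of ISG15 at chr1:1013370-1013419, plus strand. The motif of IFI44 began 18 bases before its start site, and that of IFI44L 73 bases before. The same IFI44L window occurs again further upstream, with its motif 164 bases before the start site. IFI27 held a further match nearby, and ISG15 a further match that overlaps the one shown. These are matches of letters and not measured binding sites.

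**Figure D4:**
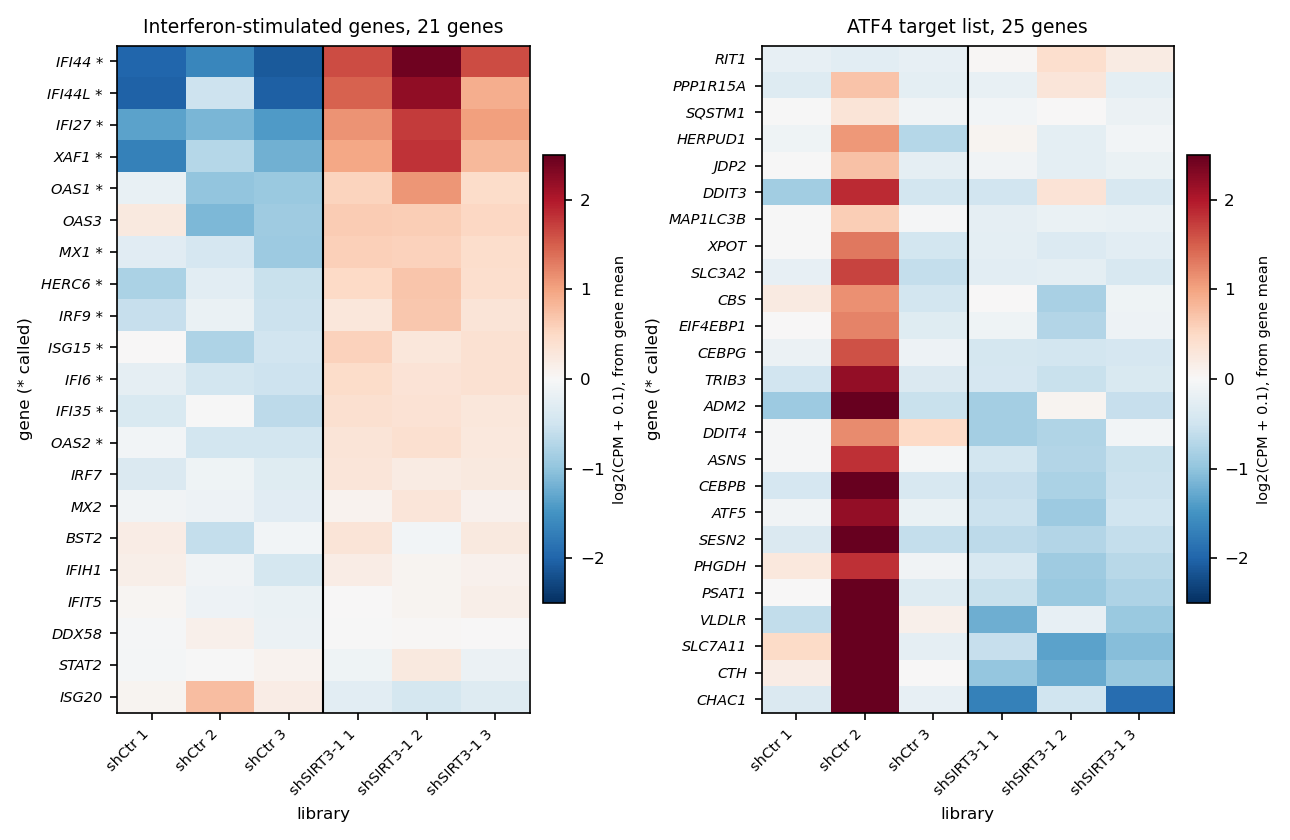
Heat maps of log2(CPM + 0.1) minus the gene's mean over the 6 libraries (color, from -2.5 to 2.5) for 21 of the 22 tested interferon-stimulated genes (left) and the 25 tested genes of the ATF4 target list (right), with libraries in columns, genes in rows by log2 fold change and an asterisk for called genes. On the left the 3 shSIRT3-1 columns are warm for the called genes, and on the right the dark red cells are all in the shCtr replicate 2 column.

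Genes of the ATF4 target list were lower with shSIRT3-1 in their mean, and a single control library stood apart. Of 32 genes, 25 were tested and none was called by limma, while 9 had an unadjusted p under 0.05 (27.3% of all genes did), edgeR called 3 lower, and 24 had a log2 fold change below 0. The median log2 fold change was -0.91 with all libraries and -0.18 without shCtr replicate 2. shCtr replicate 2 was the highest of the 6 libraries in 24 of the 25 genes, and over 2-fold above the nearest other control in 18. Its median for the list was 1.82 above the gene means on the log2 scale, against -0.088 and -0.22 in shCtr replicates 1 and 3 and -0.43, -0.49 and -0.41 in the shSIRT3-1 libraries. In 12 of the 25 genes every shSIRT3-1 library was below every control (15.1% of all genes).

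ATF4 was at 152, 326 and 129 CPM with shCtr and at 143, 150.3 and 123 CPM with shSIRT3-1 (limma, log2 fold change -0.42 ± 0.29 SE, adjusted p = 0.364), and without shCtr replicate 2 its log2 fold change was -0.016. The knockdown libraries lay at 123 to 150.3 CPM, beside 152 and 129 CPM in shCtr replicates 1 and 3. CHAC1, which degrades glutathione, was at 1.99, 67.2 and 2.23 CPM with shCtr and at 0.735, 1.81 and 0.6203 CPM with shSIRT3-1 (log2 fold change -2.72 ± 1.09 SE, adjusted p = 0.146). ASNS, asparagine synthetase, was at 97.98, 354 and 95.6 CPM with shCtr and at 72.1, 59.9 and 67.8 CPM with shSIRT3-1 (log2 fold change -1.17 ± 0.41 SE, adjusted p = 0.106). PSAT1, an enzyme of serine synthesis, was at 42.7, 250.2 and 33.6 CPM with shCtr and at 28.6, 22.1 and 24.7 CPM with shSIRT3-1 (log2 fold change -1.51 ± 0.59 SE, adjusted p = 0.139). In ASNS and PSAT1 the 3 knockdown libraries were below shCtr replicates 1 and 3 as well. TRIB3 was at 21.8, 140.5 and 23.8 CPM with shCtr and at 22.8, 20.6 and 23.5 CPM with shSIRT3-1 (log2 fold change -0.91 ± 0.57 SE, adjusted p = 0.324), and DDIT3, the factor CHOP, was at 4.38, 29.9 and 5.87 CPM with shCtr and at 5.79, 10.3 and 6.08 CPM with shSIRT3-1 (log2 fold change -0.36 ± 0.58 SE, adjusted p = 0.719). TRIB3 and DDIT3 did not separate the groups once shCtr replicate 2 was set aside, and the DDIT3 log2 fold change then turned to 0.49. Of the list, RIT1 had the smallest p, at 14.3, 13.8 and 14.3 CPM with shCtr and 16.9, 22.02 and 19.1 CPM with shSIRT3-1 (adjusted p = 0.0602).

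The genes with the widest gap between a single control and the others, among those averaging at least 5 CPM in the controls, were CHAC1, SLC6A9, ADM2, SESN2, CEBPB and SLC43A1, and in each the high library was shCtr replicate 2. SESN2, a stress-induced regulator of mTORC1, was at 11.9, 119 and 10.1 CPM with shCtr and 9.75, 9.23 and 10.1 CPM with shSIRT3-1. SLC6A9, a glycine transporter, was at 1.67, 28.3 and 1.75 CPM with shCtr and 0.626, 0.616 and 0.6298 CPM with shSIRT3-1, and without shCtr replicate 2 it was called lower (log2 fold change -1.32, adjusted p = 0.0351). ADM2 was at 3.87, 51.9 and 4.96 CPM with shCtr and 4.01, 7.695 and 4.84 CPM with shSIRT3-1, and its log2 fold change of -0.91 (adjusted p = 0.479) turned to 0.27 without that library. CEBPB and SLC43A1 reached 16.2 and 164 CPM in shCtr replicate 2 and were at most 1.79 and 21.8 CPM elsewhere. In all, 318 genes had a control library over 2-fold from the nearest other control. It was shCtr replicate 2 above the others in 114 of them, of which 5 were called, and shCtr replicate 1 below the others in 98, of which 6 were called.

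With shSIRT3-1 in the other lines, 20 of the same 25 genes were called lower in Karpas422 (9.15% of all genes) and 21 in HBL1 (17.5%). The medians there were -2.12 and -2.32. By the interaction test the response of 1 of the 25 differed between OCI-LY1 and Karpas422 (1.21% of all genes did). Between OCI-LY1 and HBL1 it differed in 2 (11.7% of all genes), so the counts of calls do not themselves show a difference between lines. With shSIRT3-2 and the same OCI-LY1 controls the median was -0.73. Upstream of these genes the C/EBP-ATF response element was searched as TGATGNAAN on both strands of the same windows, which 3 of the 23 members with a promoter held (13.0%), beside 119 of 9024 tested genes (1.32%) and 3.18% of all promoters. The ASNS window is shown for its place in the amino acid response, with the match in capitals.
ASNS: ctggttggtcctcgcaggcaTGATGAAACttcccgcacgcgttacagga
It lies at chr7:97872448-97872496, minus strand (GRCh38.p14, RefSeq), and the other members that held a match were CHAC1 and HERPUD1.

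Of the 67 genes tested in 4 amino acid lists 4 were called (5.97%), beside 4.46% of all genes tested. An unadjusted p under 0.05 by limma, counted for these lists, was found in 27.3% of all genes. Of the 20 tested cytosolic aminoacyl-tRNA synthetases, none was called by limma, 5 had an unadjusted p under 0.05 and edgeR called 1 lower and 0 higher (median log2 fold change -0.39). AARS was at 222, 477 and 208 CPM with shCtr and 160.3, 126 and 145 CPM with shSIRT3-1, and was called lower with the replicate block (adjusted p = 0.0466) but not without it (adjusted p = 0.0564). Of the 15 tested plasma membrane amino acid transporters, none was called by limma, 4 had an unadjusted p under 0.05 and edgeR called 2 lower and 0 higher (median log2 fold change -0.51). SLC7A11, the cystine importer, was at 6.02, 29.4 and 3.66 CPM with shCtr and 2.83, 1.63 and 1.99 CPM with shSIRT3-1 (adjusted p = 0.07595). Without shCtr replicate 2 these medians were -0.094 and -0.13. Of 14 enzymes of serine, glycine and one-carbon metabolism MTR, methionine synthase, was lower and no other was called by limma, with 5 at an unadjusted p under 0.05 and 3 lower by edgeR. MTR was at 73.9, 74.3 and 81.1 CPM with shCtr and at 49.6, 40.6 and 52.1 CPM with shSIRT3-1 (log2 fold change -0.69 ± 0.12 SE, adjusted p = 0.0161). SHMT2, the mitochondrial serine hydroxymethyltransferase, was at 259, 403 and 311 CPM with shCtr and 184, 162 and 192 CPM with shSIRT3-1 (adjusted p = 0.0612). Of 18 genes of glutamine, asparagine and proline metabolism, 2 were called lower and 1 higher, of which GLUD2 (lower) and PYCRL (higher) are given here. PYCRL was at 21.4, 15.9 and 15.7 CPM with shCtr and at 26.4, 24.7 and 28.1 CPM with shSIRT3-1 (log2 fold change 0.59 ± 0.13 SE, adjusted p = 0.0276). GLUD2 (-0.63, adjusted p = 0.0308) shares much sequence with GLUD1 (-0.55, adjusted p = 0.0391), so its reads are uncertain. PYCR1 was at 7.68, 42.6 and 9.82 CPM with shCtr and 5.39, 3.81 and 3.798 CPM with shSIRT3-1 and was called lower with the replicate block (adjusted p = 0.0466) but not without it (adjusted p = 0.0642).

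No gene of 7 lists on mitochondria and redox defense was called by limma or by edgeR, where limma called 4.46% of all genes tested. The lists held 42 tested nuclear genes of the respiratory chain and ATP synthase, 28 enzymes of the TCA cycle and pyruvate, 38 mitochondrial ribosomal proteins, 17 mitochondrial aminoacyl-tRNA synthetases, 15 mitochondrial chaperones and proteases, 15 fatty acid oxidation enzymes and 23 genes of glutathione synthesis and antioxidant defense. In this order 6, 6, 8, 5, 3, 6 and 4 had an unadjusted p under 0.05 (27.3% of all genes did), and the median log2 fold changes were 0.10, -0.087, 0.16, 0.054, 0.0021, -0.071 and 0.035. IDH1, the cytosolic isocitrate dehydrogenase, was at 38.1, 31.8 and 31.9 CPM with shCtr and 45.8, 42.5 and 45.8 CPM with shSIRT3-1, and VARS2, a mitochondrial valyl-tRNA synthetase, at 50.1, 45.8 and 46.9 CPM with shCtr and 37.9, 32.1 and 34.8 CPM with shSIRT3-1. Both passed the adjusted p below the fold required (log2 fold changes 0.40 and -0.45, limma, adjusted p = 0.0417 and 0.0268). The smallest p of the remaining lists belonged to NDUFS3 (log2 fold change 0.33), MRPL20 (0.53), CLPX (-0.27), ECHS1 (0.38) and GCLM (-0.47). With the block ACADS, a fatty acid oxidation enzyme, was lower, at 5.97, 6.102 and 6.38 CPM with shCtr and 4.33, 3.19 and 4.82 CPM with shSIRT3-1 (adjusted p = 0.0321).

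The counts for B-cell lists stand beside 4.46% of all genes called by limma and 27.3% with an unadjusted p under 0.05. ID3, MALT1 and RELB, given below, made up 5.26%, 4.55% and 5.56% of the tested genes of their lists, close to that share of calls. Of the 11 tested GCB-like and 10 tested activated B-cell-like markers, 1 of each list was called lower and 1 higher, a larger share of short lists. Among B-cell genes, MS4A1, which encodes the surface antigen CD20, rose. MS4A1 was at 252, 147 and 144 CPM with shCtr and at 385, 356 and 381 CPM with shSIRT3-1 (limma, log2 fold change 1.10 ± 0.19 SE, adjusted p = 0.01701), with shCtr replicate 1 between the others and the knockdown libraries. BANK1, a scaffold of B-cell receptor signaling, was at 103, 104 and 93.8 CPM with shCtr and at 170.3, 271 and 217 CPM with shSIRT3-1 (log2 fold change 1.10 ± 0.17 SE, adjusted p = 0.0148). ID3, an inhibitor of E-protein transcription factors, was at 53.02, 40.95 and 47.3 CPM with shCtr and at 74.2, 96.1 and 72.2 CPM with shSIRT3-1 (log2 fold change 0.77 ± 0.15 SE, adjusted p = 0.0219), the single call among 19 germinal center and plasma cell factors. MALT1, a paracaspase of antigen receptor signaling, was at 20.6, 19.2 and 26.5 CPM with shCtr and at 14.7, 13.7 and 15.2 CPM with shSIRT3-1 (log2 fold change -0.59 ± 0.12 SE, adjusted p = 0.0263), the single call among 22 genes of B-cell receptor signaling, of which the block called 1 lower and 1 higher. RELB, a subunit of the alternative NF-kappaB pathway, was at 23.6, 42.6 and 24.3 CPM with shCtr and at 14.8, 13.4 and 14.9 CPM with shSIRT3-1 (log2 fold change -1.01 ± 0.20 SE, adjusted p = 0.0239), the single call among 18 NF-kappaB genes, of which the block called 3 lower and 1 higher. Of the GCB-like markers, GCSAM was at 64.2, 60.1 and 62.7 CPM with shCtr and at 39.7, 44.5 and 39.9 CPM with shSIRT3-1 (log2 fold change -0.59 ± 0.090 SE, adjusted p = 0.0134) and NEK6 was at 1.397, 1.099 and 1.43 CPM with shCtr and 2.702, 2.04 and 2.39 CPM with shSIRT3-1 (log2 fold change 0.81 ± 0.18 SE, adjusted p = 0.0307). Of the activated B-cell-like markers PIM2, a survival kinase, was at 46.5, 99.3 and 79.9 CPM with shCtr and 35.2, 38.05 and 32.3 CPM with shSIRT3-1 (log2 fold change -1.03 ± 0.23 SE, adjusted p = 0.0289) and BATF at 0.507, 0.909 and 0.537 CPM with shCtr and 1.696, 1.798 and 1.34 CPM with shSIRT3-1 (log2 fold change 1.22 ± 0.25 SE, adjusted p = 0.0236). BATF passed the filter through the shSIRT3-1 libraries alone. The master factor BCL6 was at 258, 240.4 and 275 CPM with shCtr and 243, 181 and 241 CPM with shSIRT3-1 (adjusted p = 0.3997), with the lowest value in shSIRT3-1 replicate 2. MCL1, an anti-apoptotic member of the BCL2 family, was at 165, 158 and 193 CPM with shCtr and 129.6, 95.9 and 126 CPM with shSIRT3-1 (log2 fold change -0.56, adjusted p = 0.0447), just short of the fold required, and none of the 15 tested members of that family was called by limma, while 6 had an unadjusted p under 0.05 and edgeR called 1 lower and 0 higher, and the block called 2 lower.

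Of 13 MHC class II genes, 5 were tested and none was called by limma. For 1 the unadjusted p was under 0.05 (27.3% of all genes), and edgeR called 0 lower and 0 higher. With the block HLA-DMA was lower (adjusted p = 0.0483), at 8.27, 7.54 and 11.03 CPM with shCtr and 6.801, 1.72 and 6.24 CPM with shSIRT3-1. CIITA, their activator, was at 6.198, 5.799 and 9.76 CPM with shCtr and 9.44, 17.7 and 9.24 CPM with shSIRT3-1 (adjusted p = 0.175). HLA-DRA was at 0.0104, 0.268 and 0.0597 CPM with shCtr and at 1.64, 0.0206 and 0.0477 CPM with shSIRT3-1, so it reached 1 CPM in a single library, shSIRT3-1 replicate 1, which was also the highest for HLA-DRB1 (0.435 CPM), HLA-DPA1 (0.399 CPM) and HLA-DQB1 (0.399 CPM).

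In proteostasis, lysosome and lipid genes, single members were called. Each call made up between 3.7% and 4.35% of the tested genes of its list, beside 4.46% of all genes tested. These lists thus held no larger share of calls than genes at large. Of all genes, 27.3% had an unadjusted p under 0.05 by limma. DERL1, a channel of ER-associated degradation, was at 93.5, 109 and 90.96 CPM with shCtr and at 68.6, 51.6 and 67.05 CPM with shSIRT3-1 (log2 fold change -0.65 ± 0.12 SE, adjusted p = 0.0194), the single call among 26 ER chaperone and unfolded protein response genes, of which the block called 2 lower. ULK1, the kinase that starts autophagy, was at 21.6, 33.1 and 24.9 CPM with shCtr and at 16.8, 14.4 and 17.8 CPM with shSIRT3-1 (log2 fold change -0.68 ± 0.17 SE, adjusted p = 0.0413), the single call among 23 autophagy genes. CTSA, the lysosomal cathepsin A, was at 19.0, 16.9 and 15.6 CPM with shCtr and at 28.7, 41.2 and 27.2 CPM with shSIRT3-1 (log2 fold change 0.89 ± 0.18 SE, adjusted p = 0.0226), the single call among 25 lysosomal genes, of which the block called 1 lower and 3 higher. SCD, stearoyl-CoA desaturase, which makes monounsaturated fatty acids, was at 436, 346 and 534 CPM with shCtr and at 236, 118 and 226 CPM with shSIRT3-1 (log2 fold change -1.22 ± 0.27 SE, adjusted p = 0.0308), the single call among 25 sterol and fatty acid synthesis genes. PFKP, a phosphofructokinase, was at 103, 69.5 and 103 CPM with shCtr and at 55.6, 34.7 and 51.98 CPM with shSIRT3-1 (log2 fold change -0.96 ± 0.25 SE, adjusted p = 0.0451), the single call among 27 glycolysis and hypoxia genes, of which the block called 2 lower. In SCD and PFKP the lowest library was shSIRT3-1 replicate 2. Of the 13 tested cytosolic heat shock genes, none was called by limma, 4 had an unadjusted p under 0.05 and edgeR called 0 lower and 0 higher (median log2 fold change 0.35), and the block called HSPB1 lower (adjusted p = 0.0305) and HSPA1B higher. HSPA8 was at 629.6, 187 and 369 CPM with shCtr and at 776, 558 and 669 CPM with shSIRT3-1, and shCtr replicate 2 was the lowest for it as for HSPH1, HSP90AA1 and DNAJA1. Of the 13 tested kinases and eIF2 regulators of the integrated stress response, none was called by limma, 5 had an unadjusted p under 0.05 and edgeR called 0 lower and 0 higher (median log2 fold change 0.11), with EIF2AK3 (PERK) at -0.47 (adjusted p = 0.0602).

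Over all genes tested, limma called 4.46%, and 27.3% had an unadjusted p under 0.05. Of the 30 tested cell cycle and replication genes, limma called none and 7 had an unadjusted p under 0.05 (median log2 fold change 0.11). For this list edgeR called 1 lower and 0 higher. The block called 1 higher and 1 lower, MCM6, a subunit of the replicative helicase (limma, adjusted p = 0.0451). MCM6 was at 184, 196 and 131 CPM with shCtr and 123, 94.9 and 119.6 CPM with shSIRT3-1. Of the 11 tested genes of the MYC and MAX network, none was called by limma, 3 had an unadjusted p under 0.05 and edgeR called 0 lower and 0 higher (median log2 fold change -0.013), with MLXIP at 0.49 (adjusted p = 0.0443). Of the 18 tested p53 targets, none was called by limma, 5 had an unadjusted p under 0.05 and edgeR called 1 lower and 0 higher (median log2 fold change -0.19), and GADD45A, at 64.1, 69.99 and 83.3 CPM with shCtr and 52.0, 40.8 and 52.9 CPM with shSIRT3-1, passed the adjusted p (0.0306) just below the fold required. Of 42 cytosolic ribosomal proteins 1 was called, RPL15 (2.38%, beside 4.46% of all genes tested). RPL15 was lower, at 238, 283 and 322 CPM with shCtr and 172, 121 and 178 CPM with shSIRT3-1 (limma, log2 fold change -0.85 ± 0.16 SE, adjusted p = 0.0214). Its processed pseudogenes make its reads uncertain. Of 22 replication-dependent histone genes, 5 were tested, none was called (3 had an unadjusted p under 0.05 and edgeR called 0 lower and 0 higher), and shSIRT3-1 replicate 2 was the highest of the 6 libraries in 19 of the 20 with any read. The list summed to 90.6 CPM there and to between 11.35 and 20.4 CPM in the other 5 libraries. HIST1H1C was at 2.65, 1.84 and 3.15 CPM with shCtr and 3.57, 21.3 and 5.02 CPM with shSIRT3-1.

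By CPM, the most abundant lower genes were CYFIP2, UBE2H, SCD and RPL15, and the most abundant higher genes MS4A1, BANK1, FAM111B and UHMK1. CYFIP2, a subunit of the WAVE actin complex, was at 389, 456 and 445 CPM with shCtr and at 292, 209.9 and 292 CPM with shSIRT3-1 (limma, log2 fold change -0.71 ± 0.14 SE, adjusted p = 0.0229). UBE2H, a ubiquitin-conjugating enzyme, was at 341, 454 and 437 CPM with shCtr and at 261, 247 and 283 CPM with shSIRT3-1 (log2 fold change -0.63 ± 0.13 SE, adjusted p = 0.0257). UHMK1, a serine kinase, was at 101, 77.4 and 106 CPM with shCtr and at 149, 188 and 153 CPM with shSIRT3-1 (log2 fold change 0.79 ± 0.14 SE, adjusted p = 0.0161), and FAM111B was at 119, 96.98 and 79.2 CPM with shCtr and at 158, 167 and 159.6 CPM with shSIRT3-1 (log2 fold change 0.73 ± 0.19 SE, adjusted p = 0.0441). CYFIP2, UBE2H, SCD and RPL15 were no longer called without shCtr replicate 2 or 3 or shSIRT3-1 replicate 2 or 3 (adjusted p between 0.0523 and 0.0975), and UBE2H not without shSIRT3-1 replicate 1 either. None of the 4 higher genes kept its call without shSIRT3-1 replicate 3 (adjusted p between 0.0523 and 0.11). Over all libraries left out, the lost calls of these 4 had adjusted p between 0.0511 and 0.131. MS4A1 and FAM111B also lost theirs without shCtr replicate 2 or 3 or shSIRT3-1 replicate 2, as UHMK1 did without the last, and FAM111B without shSIRT3-1 replicate 1. Of the 17 called genes named from the other lists, between 0 and 15 stayed called when a library was left out (15 without shCtr replicate 1, 5 without shCtr replicate 2, 1 without shCtr replicate 3, 6, 1 and 0 without shSIRT3-1 replicate 1, 2 and 3), with adjusted p of the lost calls between 0.0503 and 0.145, except where GCSAM fell below the fold required.

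Genes called with the replicate block and not without it included CALML6, CDHR1, TSC22D3 and RAI1, with wide spread within groups. CALML6, a calmodulin-like protein, was at 0.683, 1.12 and 0.418 CPM with shCtr and at 1.63, 6.88 and 2.04 CPM with shSIRT3-1 (adjusted p = 0.00681 with the block, 0.0642 without). CDHR1, a cadherin, was at 3.55, 8.66 and 20.9 CPM with shCtr and at 17.01, 48.3 and 30.7 CPM with shSIRT3-1 (adjusted p = 0.0258 with the block, 0.0989 without). TSC22D3, a glucocorticoid-induced gene, was at 1.604, 14.6 and 4.32 CPM with shCtr and at 1.02, 1.56 and 1.12 CPM with shSIRT3-1 (adjusted p = 0.0353 with the block, 0.0865 without). RAI1 was at 1.22, 8.08 and 4.59 CPM with shCtr and 0.825, 1.14 and 1.16 CPM with shSIRT3-1 (adjusted p = 0.0493 with the block, 0.0908 without). In CALML6 and CDHR1 the second replicate was the highest of the knockdown libraries, and in TSC22D3 and RAI1 of the controls.

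The called genes were then set beside the response to shSIRT3-1 in the other lines, which have their own controls. In Karpas422, 9.15% of all genes tested were called lower and 3.64% higher, and in HBL1 17.5% were lower and 9.36% higher. Of the 273 lower genes, 132 were also lower in Karpas422, which is 48.4% of the OCI-LY1 falls and 13.0% of the Karpas422 falls. In HBL1, 163 were also lower, which is 59.7% of the OCI-LY1 falls and 8.41% of the HBL1 falls. In all 3 lines 104 were lower (38.1% of the OCI-LY1 falls), and 6 and 5 were called in the opposite direction in Karpas422 and HBL1. Of the 222 higher genes, 59 were also higher in Karpas422 (26.6% of the OCI-LY1 rises and 14.6% of the Karpas422 rises) and 71 in HBL1 (32.0% and 6.84%). In all 3 lines 29 were higher (13.1%). The opposite call was made for 1 in Karpas422 and 15 in HBL1. The filter was set on the OCI-LY1 libraries, so these counts include genes below it in the other line, such as IL2RA in HBL1.

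The difference in response itself was tested by an interaction term. It passed an adjusted p of 0.05 in 134 genes between OCI-LY1 and Karpas422 (1.21%) and in 1295 between OCI-LY1 and HBL1 (11.7%). Among the called genes, 13 falls and 17 rises differed from Karpas422, and 44 falls and 66 rises from HBL1. Both differences passed, in the same direction, in 7 falls and 10 rises. A response can be read in another line only where the gene is expressed there, and 4 of the 7 falls and 5 of the 10 rises reached 1 CPM in at least 3 of the 6 libraries of each other line. Those with the largest differences were the rises of FRG2B, RAG1, CTTN, FRG2 and CNTNAP2. All but RAG1 had passed the filter in OCI-LY1 through the shSIRT3-1 libraries alone, so their differences lend no support. FRG2B was at 0 in all Karpas422 and HBL1 libraries used, FRG2 at most 0.0203 CPM and CNTNAP2 at most 0.171 CPM, so for these 3 the difference restates the rise in OCI-LY1. RAG1 was below 1 CPM in all of them, at 0.204 to 0.645 CPM. CTTN, by contrast, was at 66.2 to 103.9 CPM in Karpas422 and 26.04 to 53.1 CPM in HBL1, with log2 fold changes of 0.52 and 0.61 there beside 3.47 in OCI-LY1. BANK1 was at 1.10 in OCI-LY1, -0.51 in Karpas422 and -0.18 in HBL1. IL2RA was at most 0.173 CPM in either line, so a fall there cannot be read. The fit nevertheless called it lower in HBL1 (limma, log2 fold change -0.94, adjusted p = 0.0208). PIM2 moved in opposite directions, -1.03 in OCI-LY1 and 1.07 in Karpas422 (adjusted p of the difference 0.0124).

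The number of called genes depended on the libraries. Without shCtr replicate 1 it rose to 590 lower and 549 higher. Without shCtr replicate 2 it was 110 and 110, without shCtr replicate 3 91 and 51, and without shSIRT3-1 replicates 1, 2 and 3 132 and 100, 58 and 27, and 34 and 14. Of the 273 lower genes 32, and of the 222 higher genes 11, stayed called whichever library was left out, 4 of the 11 having passed the filter through the shSIRT3-1 libraries alone. The filter turns on the value ranked 3 among the 6 libraries, which was 1.002 CPM for PPL and SNORA64, just inside, and 0.998 CPM for MOB4 and MSRA, just outside.

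**Figure D5:**
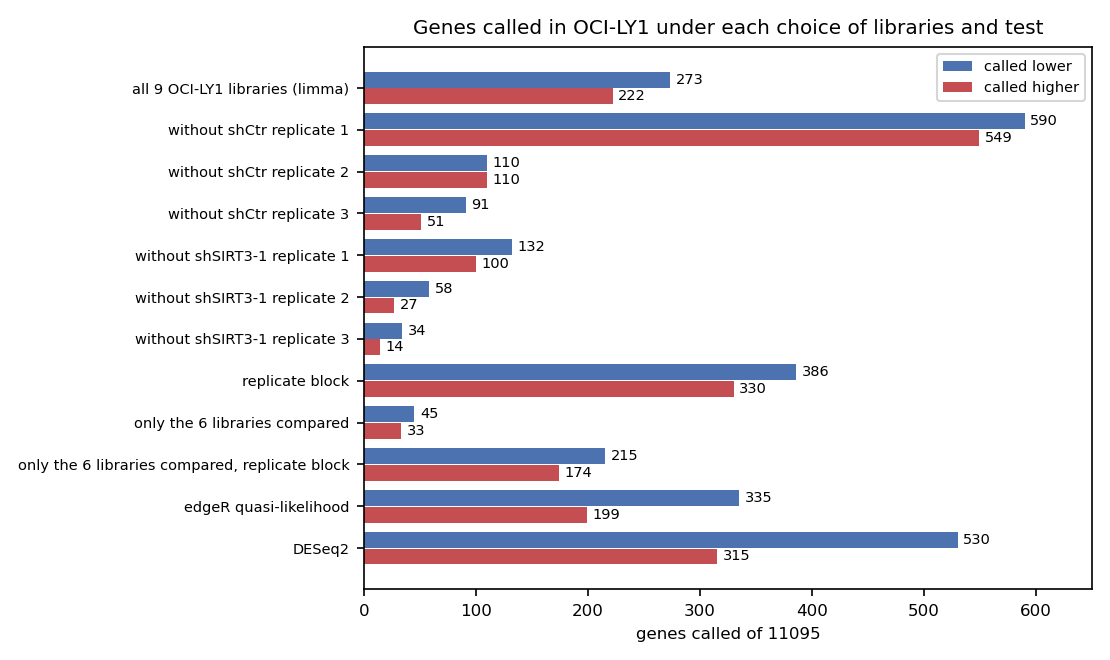
Number of the 11095 genes called (horizontal axis, from 0) under each choice of libraries and test (vertical axis), in blue for genes lower and in red for genes higher with shSIRT3-1. The bars run from 590 and 549 without shCtr replicate 1 to 34 and 14 without shSIRT3-1 replicate 3.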

How the data were processed

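Total RNA was extracted with TRIzol and RNeasy columns, and libraries were made with a TruSeq kit and sequenced as paired ends. Per the study's methods and the submitters' processing notes, reads were aligned to hg19 with STAR and counted on RefSeq genes with Rsubread; versions and the use of strand are not given in the sources used here. The files deposited by the authors hold 1 value per gene, named FPKM, but the values in each library are whole multiples of 1 step that is the same for every gene (100.0% whole at a tolerance of 0.001), so they are counts per total reads (CPM), not scaled by length. They sum to between 41.8% and 44.5% of the total they are scaled to in these 6 libraries, which held 40674045 to 50147928 reads on genes.

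From these values, log2(CPM + 0.1) was fitted with limma 3.58.1 (R 4.3.3) with a variance trend over the 9 OCI-LY1 libraries, and calls required more than a 1.5-fold change with an adjusted p (Benjamini-Hochberg over 11095 genes) below 0.05. Fold changes are on this scale, which understates those of low genes. Differences between lines were interaction contrasts over the 18 shCtr and shSIRT3-1 libraries. edgeR 4.0.16 and DESeq2 1.42.0 were run on the reads recovered from the steps. The fits were also run on simulated counts with the same dispersion for every gene and no library set apart. The real libraries differ from this, so the simulation does not vouch for the calls. Members and gene lists were chosen with earlier results of these data known.

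Named genes were SIRT3 and ATF4; the 8 largest falls and rises with separate groups and a mean of at least 2 CPM in the higher group; the 4 most abundant in each direction; up to 3 called members of each list, or the member with the smallest p; 6 genes with 1 control apart; genes at the filter; 5 that differ from both other lines; and 5 called with the replicate block alone. Others are said to be chosen after their values were seen, or were named to describe a list. Same-numbered libraries of the line deviated together from their group means (r between 0.12 and 0.61 over 9 pairs). Over 18 pairs of different number r was -0.65 to 0.49, so the ranges overlap and the pairing is uncertain. Replicate numbers were taken as pairs, from the data and not from the labels, only in the fits with a replicate block. The main fit, which gave the calls, has no replicate term. A few genes of the lists are not reported here. Upstream sequences were taken from RefSeq on GRCh38.p14 by symbol or synonym. Python 3.11.15 with pandas 2.3.3, NumPy 2.4.6 and matplotlib 3.10.9 was used.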

Additional observations from a re-analysis of the deposited data

Results flagged for a closer look

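The results below were singled out because the response of a gene to shSIRT3-1 differed between OCI-LY1 and another line by the interaction test (limma, adjusted p under 0.05). Each value is the log2 fold change in OCI-LY1 minus that in the other line, and each line has its own control libraries. No group holds more than 3 libraries, so no single library was tested as an outlier. CTTN, FRG2B, FRG2, CNTNAP2, IFI44, IFI44L, XAF1 and BATF passed the filter in OCI-LY1 through the shSIRT3-1 libraries alone. The differences of these genes lend no support.

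The OCI-LY1 response lay above that of Karpas422 by a difference of 2.95 for CTTN, 3.15 for RAG1, 2.99 for FRG2B, 2.82 for FRG2, 2.52 for CNTNAP2, 1.61 for BANK1 and 1.39 for ID3. The adjusted p of these differences ran from 0.00486 to 0.0463. The OCI-LY1 response lay below that of Karpas422 by a difference of -2.13 for IL2RA, -2.03 for FAM46C, -2.10 for PIM2 and -1.72 for CADM1. The adjusted p of these differences ran from 0.00497 to 0.0265. In Karpas422 FRG2B, FRG2, CNTNAP2, IL2RA and CADM1 were at most 0.0318 CPM in every shCtr and shSIRT3-1 library, so their differences restate the change in OCI-LY1. FAM46C was at most 0.344 CPM and RAG1 0.626 CPM, and ID3 was at 0.429 to 1.104 CPM. These genes did not reach the filter in Karpas422, so their response there is hard to read. CTTN, BANK1 and PIM2 were at 18.2 CPM or more there in every shCtr and shSIRT3-1 library.

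The OCI-LY1 response lay above that of HBL1 by a difference of 1.86 for RAB39B, 4.28 for IFI44, 2.86 for CTTN, 4.54 for IFI44L, 2.96 for RAG1, 2.99 for FRG2B, 2.75 for FRG2 and 2.70 for CNTNAP2. It was also 1.23 for MS4A1, 1.28 for BANK1, 1.38 for GADD45A, 1.62 for BATF, 1.32 for TMEM64, 3.31 for XAF1, 2.23 for OAS1 and 2.47 for MX1. It was also 2.43 for ISG15, 1.00 for IRF9, 1.79 for IFI35 and 1.502 for SHMT2. The adjusted p of these differences ran from 0.00069 to 0.0479. The OCI-LY1 response lay below that of HBL1 by a difference of -1.70 for RAB37, -4.00 for CDHR1 and -1.40 for CADM1. The adjusted p of these differences ran from 0.00323 to 0.0255. In HBL1 FRG2B was at 0 and FRG2, CNTNAP2, RAB37 and CADM1 at most 0.171 CPM in every shCtr and shSIRT3-1 library, so their differences largely restate the change in OCI-LY1. RAG1 was at most 0.645 CPM there and did not reach the filter, and GADD45A was at 0.243 to 1.855 CPM.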

How the results depend on the processing

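SIRT3 was called lower under each of the 18 alternatives. The count of lower genes, 273, became 45 with the 6 compared libraries alone, 530 with DESeq2 and 473 with edgeR and a replicate block, and lay between 34 and 590 with 1 library left out. The count of higher genes, 222, became 33 with the 6 compared libraries alone and lay between 14 and 549 with 1 library left out. The response differed from Karpas422 in 134 genes, in 248 without a filter on low values, and in 39 to 393 with 1 library left out; from HBL1 it differed in 1295, in 2039 without the filter, and in 704 to 1430. With the replicate block, whose pairing is given above, 386 genes were lower and 330 higher, and the response differed from Karpas422 in 314 genes and from HBL1 in 2216. With the block 9 of 102 named values gained a call and none lost one. With 1 library left out the log2 fold change changed sign for ADM2 (-1.58 to 0.27), DDIT3 (-0.89 to 0.49) and PPL (-0.17 to 1.10), none of them called. Median-ratio scaling gave 346 lower and 193 higher genes, or 64.2% lower against 55.2%, and without the filter on low values (20180 genes tested) 201 were lower and 249 higher, or 44.7% lower. The causes were not tested. With 3 libraries a group, and genes below 1 CPM resting on few reads, a difference that misses the threshold is not shown to be absent.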
